A study of Mus musculus with 9 samples.

Results

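The genes described here are 9 genes of the retinoic acid pathway: Stra6, Crabp1, Crabp2, Aldh1a1, Aldh1a2, Aldh1a3, Cyp26a1, Cyp26b1 and Rarb. They were taken by symbol from the gene lists of 9 single-cell RNA-seq libraries, and all 9 were among the 30406 genes that every library listed. The libraries followed mouse embryonic fibroblasts (MEFs) on their way to induced neurons (iNs) on days 4, 7 and 10 of reprogramming, with 1 library for each day from wild-type (WT) cells, from cells that lack the clock gene Per1 (Per1-/-) and from cells that lack Per2 (Per2-/-). Cells of all 9 libraries carried viruses for the reprogramming transcription factors and for the M2rtTA activator that doxycycline switches on, and were kept from day 0 in N3 medium, which holds insulin, transferrin, selenium, progesterone, putrescine and basic FGF. The knockouts carried the germline alleles Per1tm1Drw and Per2tm1Drw, so every cell type of a culture was affected. MEFs came from mid-gestation embryos without head and heart, embryos were pooled within a dish, and the sex of the embryos was not determined. Such preparations can hold other cell types of the embryonic trunk and limbs beside fibroblasts, and which cells of the cultures came from them and which from reprogramming was not tested.

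Retinoic acid is a small signal made from vitamin A. Stra6 is a membrane receptor through which cells take up retinol from its carrier in blood. Retinol is oxidised to retinaldehyde by dehydrogenases such as Rdh10 and then, irreversibly, to retinoic acid by the retinaldehyde dehydrogenases Aldh1a1, Aldh1a2 and Aldh1a3. Crabp1 and Crabp2 carry retinoic acid inside the cell: Crabp2 is known to pass it to its receptors in the nucleus, and Crabp1 is linked to keeping it in the cytoplasm and to its breakdown. The enzymes Cyp26a1 and Cyp26b1 degrade retinoic acid. Rarb is a nuclear receptor for retinoic acid and a classical direct target of it, as is Cyp26a1. In the embryo the balance of making and breaking retinoic acid patterns the limb, the spinal cord and the hindbrain, and retinoic acid is widely used in culture to drive neuronal differentiation.

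Receptors of the retinoic acid receptor family bind paired half-sites, and a direct repeat with 5 bases between the half-sites (DR5) is their best known element. In RefSeq promoter windows of mouse build GRCm38.p6, each reaching from 250 bases before to 50 bases after a start site, a DR5 was searched on both strands as AGGTCA or AGTTCA or GGGTCA or GGTTCA followed, after 5 bases, by any of the same 4 half-sites. Windows were matched for 7 of the 9 genes, 11 windows in all, and not for Crabp2 and Aldh1a3. A DR5 was found in the windows of 2 genes, Rarb and Cyp26a1, and the matches are shown because these are the receptor and the degrading enzyme that retinoic acid is known to induce. Half-sites are in capitals and the bases between them in lower case.
Rarb: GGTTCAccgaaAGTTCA
Cyp26a1: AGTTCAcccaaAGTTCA
The Rarb match lies at chr14:16575513-16575529, reads on the strand of the gene and spans bases 53 to 37 before the start of the RefSeq transcript, with all 17 of its bases in an annotated UTR. The Cyp26a1 match lies at chr19:37697776-37697792, 32 to 16 bases before the start, and reads on the strand opposite to the gene. Both share their last half-site. Of 32851 promoter windows, which leave out the genes of 1 chromosome that holds none of the 9, 32 held a DR5, which is 0.0974%. A match is a description of the sequence only. The half-sites with 2 or 1 bases between them were found in none of the 11 windows, against 0.268% and 0.222% of the 32851.

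Each library held 126625215 to 353198559 unique molecular identifiers (UMIs), each of which stands for 1 counted transcript. Of 95603 barcodes, 81999 passed limits of at least 3000 UMIs and at most 20% mitochondrial UMIs, and 73557 cells were kept after the removal of likely doublets, 5625 to 10517 per library. The WT library of day 10 stood apart by its depth, with a median of 3552 UMIs per barcode and 55.41% of barcodes past the limits against 86.11% to 94.48% in the others. The Per1-/- libraries of days 7 and 10 stood apart by Xist, which is expressed from the inactive X chromosome of female cells, with 0.0679 and 0.0599 counts per 1000000 UMIs (CPM) against 346 to 993 CPM in the other 7 libraries. Per1 was counted at 9.15 to 10.3 CPM in the libraries labelled Per1-/- and at 6.31 to 7.72 CPM in the others, and Per2 at 4.97 to 6.41 CPM in the libraries labelled Per2-/- and at 2.57 to 3.16 CPM in the others. These libraries count the 3′ ends of transcripts, which a disrupted allele can still make, so the labels were not checked by these counts. Day 10 was counted with another gene list and another Cell Ranger version than days 4 and 7, and this cannot be told apart from the day. Library pairs shared 10 to 29 cell barcodes, at most 0.373% of the smaller library.

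Cells were clustered without the retinoid genes, and 16 of 24 clusters were named from marker lists as 7 classes. These were fibroblast-like (31881 cells), neuron-like (10637), macrophage-like (6423), skeletal muscle-like (4931), Schwann-like (2565), astrocyte-like (973) and mesothelial-like cells (376), and 15771 cells stayed unnamed. Unnamed cells were 51.3% of the WT and 48.0% of the Per2-/- library of day 10, and lay outside the classes tested. Their share was lower in every other library, down to 7.72% in Per2-/- of day 7. The summed fibroblast markers ran from 22602 to 46604 CPM in fibroblast-like and from 265 to 765 CPM in macrophage-like cells, and the summed macrophage markers from 22296 to 29971 CPM in macrophage-like and from 19.4 to 128 CPM in fibroblast-like cells. Mesothelial-like cells also held the fibroblast markers, at 34527 to 49210 CPM, beside 762 to 3045 CPM of their own. Skeletal muscle-like cells held 10180 to 20375 CPM of fibroblast markers and 499 to 764 CPM of neuron markers beside 823 to 2386 CPM of their own, and Schwann-like cells 7240 to 13423 CPM of fibroblast and 812 to 2390 CPM of neuron markers beside 2629 to 3270 CPM of their own. The summed Schwann markers were higher in astrocyte-like cells (3514 to 10826 CPM), which held 9380 to 14889 CPM of astrocyte markers. Fabp7, a leading gene of the astrocyte-like cluster, stands in both lists, so these sums share it and do not compare the identities of the classes. The part of such mixed markers in the class differences was not tested. Over all cells kept, Crabp1 gave 789331 UMIs in 60.5% of cells and Crabp2 90723 UMIs in 36.4%. Aldh1a2 gave 24678 UMIs in 6.66% of cells, Aldh1a1 5119 in 3.70%, Aldh1a3 5051 in 3.90%, Cyp26b1 5006 in 2.80%, Rarb 4210 in 4.41% and Stra6 1194 in 1.15%. Cyp26a1 gave 104 UMIs in 0.0721% of cells. Levels are given below as CPM of the summed UMIs of a class in a library and are compared between cells, not between genes. Differences are log2 fold changes ± SE from edgeR's quasi-likelihood test over 15185 genes, with the library as a block and p-values adjusted by Benjamini-Hochberg, and class differences are against fibroblast-like cells. Each p-value sets a class difference against the spread left between these libraries after the block, with 1 spread per gene for all classes. That spread holds any effect of day or genotype that differs between classes, since no condition had a second library. Of the 9 genes, 8 passed the filter on low counts, Cyp26a1 being the exception.

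**Figure D1:**
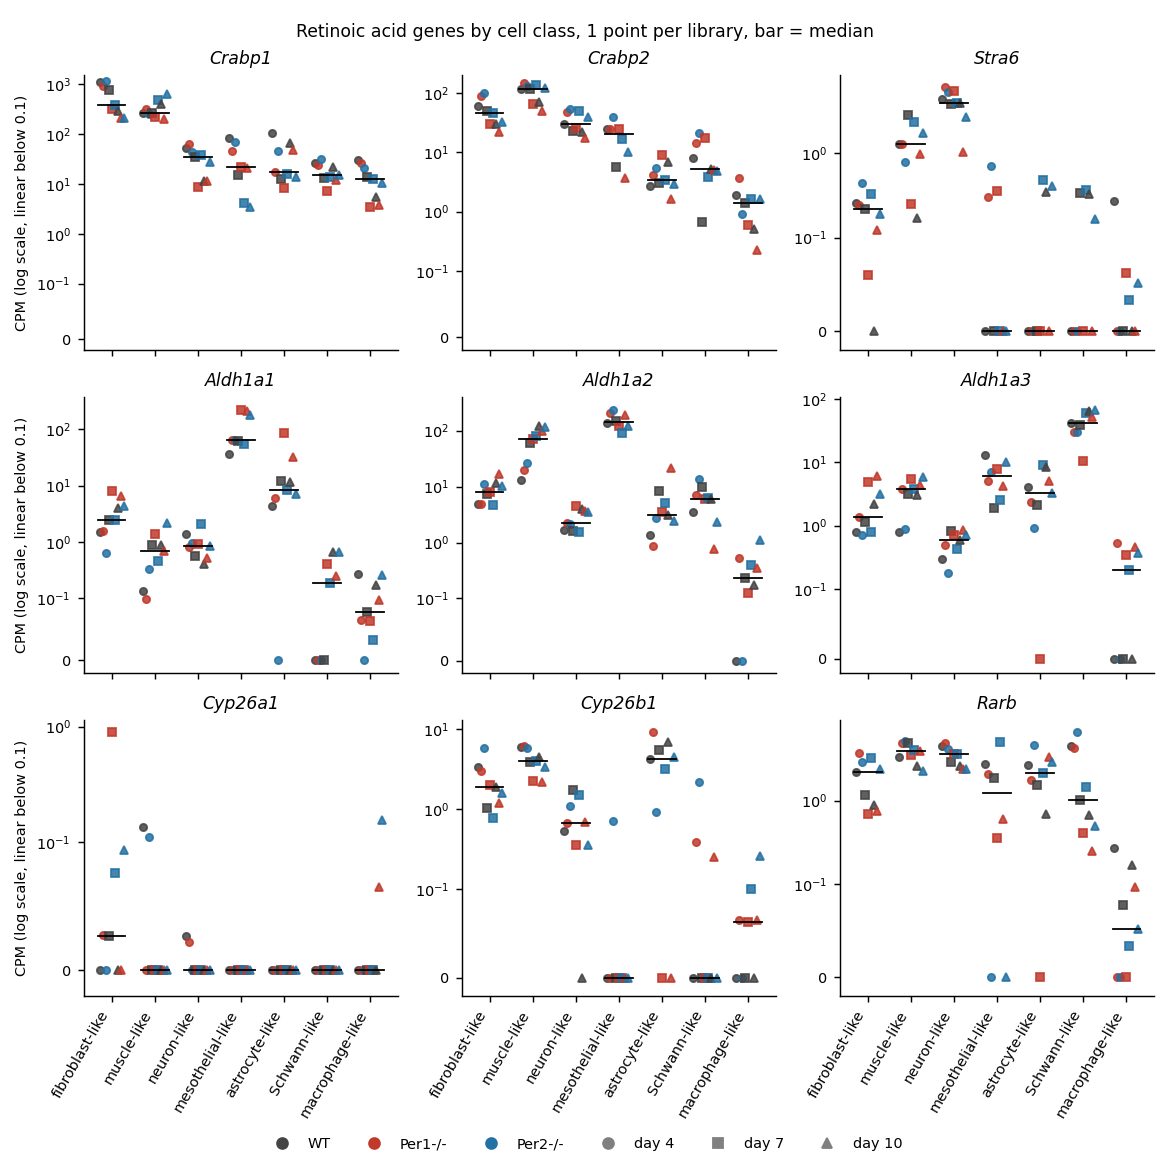
CPM of each gene (y axis, log scale, linear below 0.1) in 7 cell classes (x axis), with 1 point per library (colour for genotype, shape for day) and a bar at the median. Stra6 was highest in neuron-like cells (median 3.95 CPM), Aldh1a1 and Aldh1a2 in mesothelial-like cells (63.8 and 144 CPM) and Aldh1a3 in Schwann-like cells (41.7 CPM), and macrophage-like cells were at the bottom of the order for Crabp1, Crabp2 and Rarb.

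The classes differed in every step of the pathway. In neuron-like cells Stra6 was higher than in fibroblast-like cells and 6 of the 8 genes tested were lower (79.1% of all genes tested passed the threshold in this comparison). Skeletal muscle-like cells were higher in 5 of 8 and lower in 2 (61.9% of all genes). Mesothelial-like cells were higher in 3 and lower in 3 (40.7%), and Schwann-like cells higher in 1 and lower in 5 (67.2%). Astrocyte-like cells were higher in 1 and lower in 3 (66.2%). All 8 were lower in macrophage-like cells (83.4%). A large share of all genes differed in each of these comparisons, so that such counts of 8 genes say little on their own. The median difference of the 8 was -1.68 in neuron-like, -4.38 in macrophage-like, 0.79 in skeletal muscle-like, -0.17 in mesothelial-like, -1.86 in Schwann-like and -0.41 in astrocyte-like cells, against -0.12 to 0.04 for all genes.

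Stra6, the retinol receptor (chr9:58063788-58153996, plus strand), was counted mainly in neuron-like cells, which held 64.7% of its UMIs and 10.1% of all UMIs. On days 4, 7 and 10 its level there was 4.32, 3.80 and 3.95 CPM in WT, 6.09, 5.38 and 1.03 CPM in Per1-/- and 5.23, 3.90 and 2.68 CPM in Per2-/- libraries. Fibroblast-like cells ran from 0 to 0.445 CPM, below every neuron-like value. The difference was 3.93 ± 0.32 (adjusted p = 2.59e-16). Skeletal muscle-like cells came next, at 0.172 to 2.84 CPM (2.41 ± 0.33, adjusted p = 7.76e-09), and their range overlapped that of neuron-like cells. After each cell was thinned to 5000 UMIs, Stra6 was seen in 2.34% of neuron-like cells (95% exact binomial interval 2.05% to 2.66%), in 0.0978% of fibroblast-like and in 0.0157% of macrophage-like cells. Their median depths before thinning were 13099, 23450 and 22130 UMIs. All such intervals cover counting error only.

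Crabp1 (chr9:54764748-54773110, plus strand) had its highest class median in fibroblast-like cells. It lay at 211 CPM in the lowest, 383 CPM in the median and 1157 CPM in the highest library of these cells, and at 202, 266 and 621 CPM in skeletal muscle-like cells. These ranges overlapped, and the difference of -0.76 ± 0.30 (adjusted p = 0.0242) was lost when any of 4 libraries was left out, all 3 of day 4 and WT of day 7 (adjusted p = 0.0721 to 0.112), and by DESeq2 (-0.68 ± 0.35, adjusted p = 0.0715). With all libraries summed, the unnamed clusters 22 (1862 CPM) and 13 (1249 CPM) were above the fibroblast-like class as a whole (638 CPM). Cluster 13 drew 58.7% of its cells from 1 library, and fibroblast-like cells reached 1157 CPM in their highest library. Every other named class lay below fibroblast-like and skeletal muscle-like cells in every library. Neuron-like cells were at 8.61 to 63.1 CPM (-4.52 ± 0.34, adjusted p = 1.82e-17), and macrophage-like cells at 3.44 to 30.4 CPM (-5.19 ± 0.36, adjusted p = 3e-19). Macrophage-like cells, which stem from another lineage, showed 1.44% to 4.22% of the Crabp1 level of all cells, and neuron-like cells were 1.69 to 3.04 times the macrophage-like level in the same library. After thinning to 5000 UMIs, 57.7% of fibroblast-like, 43.8% of skeletal muscle-like, 13.2% of neuron-like and 4.80% of macrophage-like cells held a Crabp1 UMI. The ranges of neuron-like, mesothelial-like, astrocyte-like and Schwann-like cells all overlapped that of macrophage-like cells, and whether the Crabp1 UMIs of any of these 5 classes came from free RNA was not tested.

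Crabp2 (chr3:87948666-87953376, plus strand), which delivers retinoic acid to its receptors, had another order. Skeletal muscle-like cells led with a median of 118 CPM (50 to 147), before fibroblast-like cells with 45.6 CPM (22.2 to 98.4) and neuron-like cells with 30.3 CPM (17.4 to 52.6). Neighbours in this order overlapped between libraries. Against fibroblast-like cells the differences were 0.91 ± 0.20 (adjusted p = 9.57e-05) in skeletal muscle-like and -0.89 ± 0.20 (adjusted p = 0.000112) in neuron-like cells. Macrophage-like cells were at 0.226 to 3.73 CPM (-4.87 ± 0.27, adjusted p = 7.24e-23), and the neuron-like level was 12.8 to 77.0 times theirs in the same library. The Crabp2 of neuron-like cells thus stood further above the macrophage-like level than their Crabp1. A Crabp2 UMI was seen in 31.9% of skeletal muscle-like, 18.6% of fibroblast-like, 12.9% of neuron-like and 0.518% of macrophage-like cells thinned to 5000 UMIs.

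The 3 retinaldehyde dehydrogenases, which make retinoic acid, did not all peak in the same class, though all 3 were higher in mesothelial-like than in fibroblast-like cells. Aldh1a1 (chr19:20492715-20643465, plus strand) was highest in mesothelial-like cells, which line body cavities, with 36.8, 64.3 and 63.3 CPM in WT, Per1-/- and Per2-/- on day 4 and 61.4, 222 and 55.3 CPM on day 7. On day 10 it was 212 CPM in Per1-/- and 180 CPM in Per2-/-, and the WT library, with 1 such cell, was left out. These cells were 0.511% of all cells and gave 29.0% of all Aldh1a1 UMIs. The difference from fibroblast-like cells, which ran from 0.626 to 7.96 CPM, was 5 ± 0.31 (adjusted p = 1.93e-19). Astrocyte-like cells were the only other class above fibroblast-like cells (1.87 ± 0.30, adjusted p = 3.56e-07), over a wide range of 0 to 86.8 CPM with the highest value in Per1-/- on day 7. Skeletal muscle-like (-2.37 ± 0.36), neuron-like (-1.54 ± 0.31), Schwann-like (-3.60 ± 0.57) and macrophage-like cells (-5 ± 0.52) were lower. Aldh1a7, a close copy of Aldh1a1, was also higher in mesothelial-like cells (4.37 ± 0.59, adjusted p = 2.46e-08), and how reads were split between the 2 copies was not tested.

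Aldh1a2 (chr9:71215789-71296243, plus strand), the main enzyme of the embryonic trunk, was high in 2 of the named classes. Unnamed cells gave the largest share of its UMIs, 37.1%, with 19.6% of all UMIs. Fibroblast-like cells gave 26.6%, skeletal muscle-like cells 24.9% and mesothelial-like cells 8.57%. Mesothelial-like cells ran from 92.2 to 236 CPM with a median of 144 CPM (4.29 ± 0.32, adjusted p = 1.6e-16), and skeletal muscle-like cells from 13.3 to 121 CPM with a median of 72.0 CPM (2.64 ± 0.29, adjusted p = 1.9e-11). Fibroblast-like cells were at 4.71 to 16.8 CPM and neuron-like cells at 1.52 to 4.48 CPM (-2.06 ± 0.32, adjusted p = 1.13e-07), the latter above every macrophage-like value (0 to 1.09 CPM). The lower level in Schwann-like cells (-0.88 ± 0.38, adjusted p = 0.0353) was lost in 7 of the alternatives tried, 4 of them the leaving out of 1 library (Per1-/- of day 7 or any of day 10). With 5000 UMIs per cell, Aldh1a2 was seen in 36.5% of mesothelial-like, 12.8% of skeletal muscle-like, 2.29% of fibroblast-like and 0.204% of macrophage-like cells.

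Aldh1a3 (chr7:66390890-66427517, minus strand) had its highest class median in Schwann-like cells. Its level there was 41.7, 30.5 and 30.1 CPM in WT, Per1-/- and Per2-/- on day 4, 38.6, 10.6 and 60.2 CPM on day 7 and 64.8, 51.5 and 67.9 CPM on day 10. The lowest of these, Per1-/- on day 7, was below the highest mesothelial-like value of 13.2 CPM and above all fibroblast-like values (0.709 to 6.09 CPM). Schwann-like cells exceeded fibroblast-like cells by 4.24 ± 0.34 (adjusted p = 3.7e-16) and held 37.9% of the gene's UMIs with 2.19% of all UMIs. Fibroblast-like cells held 33.2% of them with 50.4% of all UMIs, and unnamed cells 15.9% with 19.6%. Mesothelial-like cells were higher too (1.70 ± 0.45, adjusted p = 0.00174), and neuron-like (-2.24 ± 0.40) and macrophage-like cells (-2.70 ± 0.46) were lower. A UMI was seen in 21.3% of Schwann-like, 0.950% of fibroblast-like and 0.157% of macrophage-like cells thinned to 5000 UMIs.

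**Figure D2:**
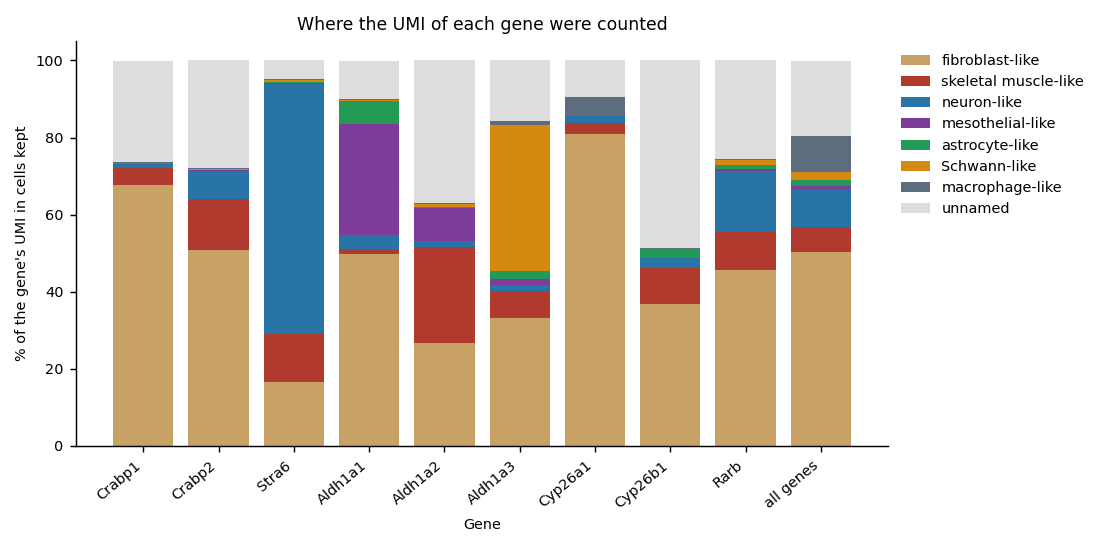
Share of each gene's UMIs (y axis, percent, stacked to 100) that was counted in each cell class, for the 9 genes and for all genes together (last bar). Neuron-like cells held 64.7% of Stra6 and 10.1% of all UMIs, Schwann-like cells 37.9% of Aldh1a3 and 2.19% of all, and mesothelial-like cells 29.0% of Aldh1a1 and 0.765% of all.

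Of the degrading enzymes, Cyp26b1 (chr6:84571414-84593908, minus strand) gave most of the UMIs. Its level was 0.776 CPM in the lowest, 1.90 CPM in the median and 5.87 CPM in the highest library of fibroblast-like cells, and 2.16, 4.03 and 6.14 CPM in skeletal muscle-like cells. Astrocyte-like cells had the highest class median, 4.28 CPM (0 to 9.13), but their difference of 0.72 ± 0.37 did not pass (adjusted p = 0.0819). The higher level in skeletal muscle-like cells (0.72 ± 0.32, adjusted p = 0.0461) was lost in 12 of the alternatives tried. Neuron-like (-1.81 ± 0.37), macrophage-like (-4.09 ± 0.50), Schwann-like (-3.73 ± 0.63) and mesothelial-like cells (-4.83 ± 1.08) were lower. The mesothelial-like cells thus combined the highest Aldh1a1 and Aldh1a2 with 1 Cyp26b1 UMI in 376 cells. The largest source was a cluster that the marker lists left unnamed, cluster 13, led by the homeobox genes Dlx5, Dlx6 and Pou3f3: it ran at 36.7 CPM and gave 41.8% of all Cyp26b1 UMIs, and all unnamed cells together gave 48.6%. Within that cluster Cyp26b1 was 18.1, 34.1 and 48.6 CPM in WT, Per1-/- and Per2-/- on day 4 and 19.5, 7.53 and 4.58 CPM on day 7, and on day 10 fewer than 20 of its cells remained in each library.

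Cyp26a1 (chr19:37697798-37701536, plus strand) was scarcely counted. Of its 104 UMIs, 60 came from the Per1-/- library of day 7, and 58 of these lay in 19 of the 1883 cells of fibroblast-like cluster 1, with up to 16 in a cell. The same cluster gave 14 UMIs in the other 8 libraries together. The level in fibroblast-like cells was 0.899 CPM in that library and 0 to 0.0941 CPM in the other 8, where 4 libraries had none. A count of 0 allows up to 3 UMIs. No other library shows whether this was a feature of the genotype, of the day or of that culture.

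Rarb (chr14:16430839-16819156, minus strand), receptor and target, was low in every class. Skeletal muscle-like cells had a median of 3.93 CPM (2.24 to 5.2), neuron-like cells 3.59 CPM (2.40 to 4.87), fibroblast-like cells 2.20 CPM (0.690 to 3.72) and macrophage-like cells 0.0519 CPM (0 to 0.271). Against fibroblast-like cells it was higher in skeletal muscle-like (0.87 ± 0.28, adjusted p = 0.00561) and lower in macrophage-like cells (-4.59 ± 0.48, adjusted p = 1.34e-12). The neuron-like difference of 0.52 ± 0.28 did not pass (adjusted p = 0.0797). With 5000 UMIs per cell, Rarb was seen in 1.86% of neuron-like, 1.77% of skeletal muscle-like, 1.14% of fibroblast-like and 0.0314% of macrophage-like cells.

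Within classes the clusters differed too, for Crabp1 and Rarb in fibroblast-like cells and for Stra6 in neuron-like cells. These are descriptions with no test, since clusters were built from the other genes of the same cells. Where no range is given, the levels sum all libraries. Libraries differed in their shares of each cluster, so the order of clusters need not hold in each library. In fibroblast-like cells Crabp1 ran from 60.4 CPM in cluster 9, led by Otor, Tac1 and Sphkap, over 199 CPM in cluster 3 (Igf2, Clec3b, Ebf2) and 423 CPM in cluster 1 (C1qtnf3, Meox1) to 744 CPM in cluster 2 (Msx1, Hoxd13, Tbx4) and 1785 CPM in cluster 10 (Slc14a1, Grem1). Rarb showed another order of the same clusters, with 0.301 CPM in cluster 1, 0.552 in cluster 3, 3.06 in cluster 10, 3.91 in cluster 9 and 5.03 in cluster 2. Rarb in cluster 1 stayed between 0.226 and 0.418 CPM in all 9 libraries, and in cluster 9 Crabp1 stayed between 35.2 and 91.8 CPM. Among neuron-like clusters, Stra6 was at 9.28 CPM in cluster 6 (Miat, Lhx3, Elavl3), which gave 57.5% of all its UMIs. It was at 1.88 CPM in cluster 17 (Snhg11, Scg3, Syp), 2.61 CPM in cluster 19 (Htr3a, Ecel1, Nefl) and 0.354 CPM in cluster 11 (Gcg, Nts, Khdrbs2). Cluster 19 had the highest Crabp2 (149 CPM) and the highest Rarb (11.2 CPM) of all 23 clusters of at least 50 cells, and Rarb lay between 6.72 and 14.8 CPM in each of its 9 libraries.

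**Figure D3:**
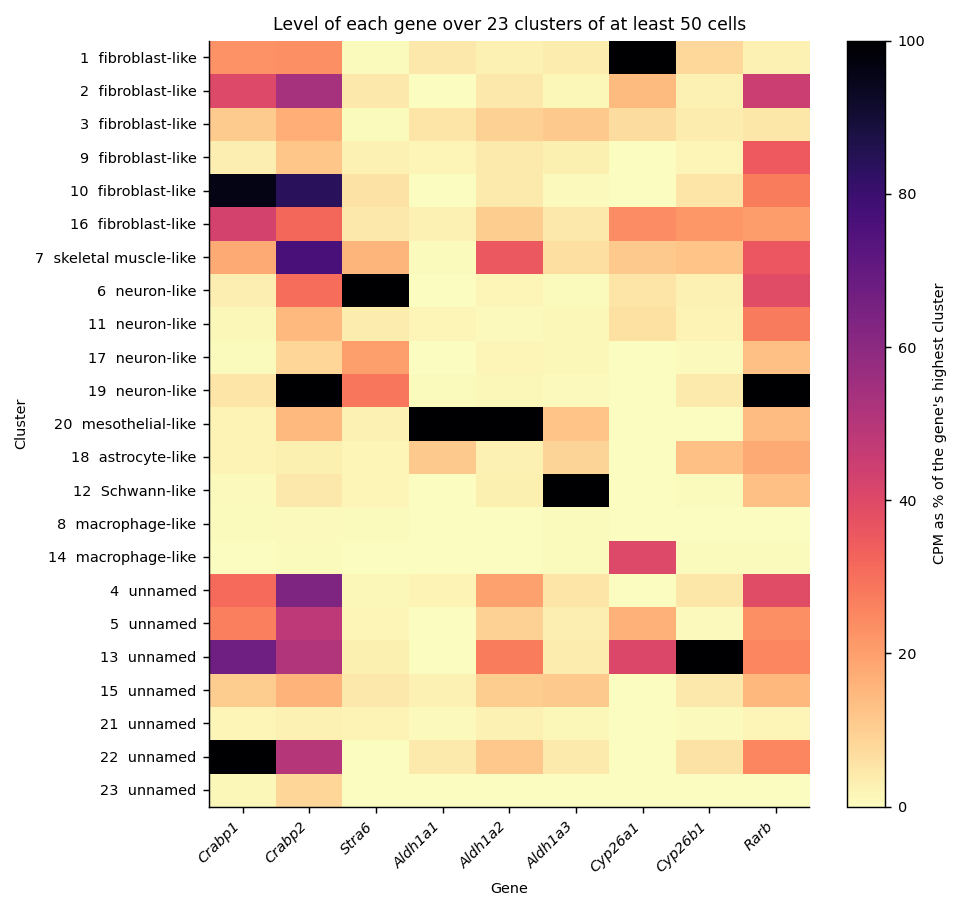
CPM of each gene (x axis) in each cluster of at least 50 cells (y axis, with its class), all libraries summed, as percent of the gene's highest cluster (colour). The genes peak in several places: Stra6 in neuron-like cluster 6, Crabp2 and Rarb in neuron-like cluster 19, Aldh1a1 and Aldh1a2 in the mesothelial-like cluster, Aldh1a3 in the Schwann-like cluster, Cyp26b1 in the unnamed cluster 13 and Crabp1 in the unnamed cluster 22.

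Over the 23 clusters, levels of the binding proteins went together (Pearson's r of log2(CPM + 1) 0.82 for Crabp1 and Crabp2), as did Crabp2 and Rarb (0.75). The 3 dehydrogenases were at 0.40 to 0.55 with each other, and Stra6 and Aldh1a3 at -0.26. Clusters of 1 library share its depth and any free RNA, so these values describe the 23 clusters only. By the same measure the genes most like each one were Apol9a (0.900), Osr2 (0.884) and Osr1 (0.876) for Crabp1, and Pitx1 (0.885), Gata2 (0.857) and Nxn (0.849) for Crabp2. Those most like Stra6 were Gpr20 (0.945), Grm4 (0.936) and Cib3 (0.932). For the dehydrogenases they were Fmo2 (0.884), Folr1 (0.857) and Sntg2 (0.851) for Aldh1a1, Mylk (0.869), Tg (0.869) and Baiap2l1 (0.862) for Aldh1a2, and Entpd2 (0.908), Insc (0.882) and Sox13 (0.872) for Aldh1a3. Cyp26b1 was closest to Wfdc2 (0.884), 3110099E03Rik (0.801) and Dlx5 (0.756), and Rarb to Atxn7l2 (0.85), Hsp90ab1 (0.825) and Osbpl10 (0.798).

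Within fibroblast-like cells thinned to 5000 UMIs, Crabp1 and Crabp2 were found together in 4411 cells, against 3716 if the shares of each library were independent. This ratio of 1.19 lay between 1.14 and 1.29 in the 9 libraries, all above 1. Crabp2 and Aldh1a1 met in 36 cells against 62.7, a ratio of 0.57, and none of the 5 libraries with enough cells to give a ratio was above 1. Crabp1 and Aldh1a1 gave 0.81, above 1 in 1 of 9 libraries. At 10000 UMIs this pair gave 0.92 (above 1 in 2 of 9 libraries) and unthinned 1.0 (5 of 9). Crabp2 and Aldh1a1 gave 0.59 at 10000 UMIs and 0.78 unthinned, with 0 of 9 libraries above 1 in either. In skeletal muscle-like cells, which were a single cluster, Crabp1 and Aldh1a2 met in 437 cells against 284, a ratio of 1.54 that was above 1 in 8 of 9 libraries. This pair gave 1.4 at 10000 UMIs (8 of 9 libraries above 1) and 1.3 unthinned (9 of 9). In the fibroblast-like class clusters with unlike levels were pooled, which moves its ratios, and how much was not tested.

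From day 4 to day 10, both binding proteins fell and Aldh1a1 and Aldh1a3 rose in fibroblast-like cells. The genotypes served as the 3 repeats of a day, in the same test with genotype and day as factors over 16739 genes. Crabp1 was 1082, 906 and 1157 CPM in WT, Per1-/- and Per2-/- on day 4, 747, 322 and 383 CPM on day 7 and 290, 213 and 211 CPM on day 10. No value of one day overlapped those of another. It fell between days 4 and 10 by 2.18 ± 0.21 on the log2 scale (adjusted p = 0.00101). Crabp2 was 60.8, 88.2 and 98.4 CPM on day 4, 50.3, 30.4 and 45.6 CPM on day 7 and 29.8, 22.2 and 32.8 CPM on day 10, and fell by 1.59 ± 0.21 (adjusted p = 0.00354). Aldh1a1 was 1.5, 1.54 and 0.626 CPM on day 4, 2.42, 7.96 and 2.46 CPM on day 7 and 3.98, 6.44 and 4.26 CPM on day 10, and rose by 2.01 ± 0.36 (adjusted p = 0.0102). Aldh1a3 was 0.782, 1.37 and 0.709 CPM on day 4, 1.14, 4.84 and 0.776 CPM on day 7 and 2.21, 6.09 and 3.15 CPM on day 10, and rose by 1.92 ± 0.38 (adjusted p = 0.0134). Its call was lost without the Per2-/- library of day 10 (adjusted p = 0.0503) and in a wider fibroblast-like class (1.26 ± 0.36, adjusted p = 0.052). Thus 2 of the 8 genes tested rose and 2 fell from day 4 to day 10, where 20.7% of all genes passed. The median change of the 8 was -1.42, against 0.0 for all genes.

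The other 4 did not pass: Aldh1a2 (0.89 ± 0.38, adjusted p = 0.137), Cyp26b1 (-1.42 ± 0.43, adjusted p = 0.0535), Rarb (-1.41 ± 0.45, adjusted p = 0.0625) and Stra6 (-1.49 ± 0.67, adjusted p = 0.154). DESeq2 called 7 of the 8, all but Stra6. Shares of all genes, here and below, are those of edgeR's main test. The share that DESeq2 called is not given, so its counts are not read as results about these genes. From day 4 to day 7, Crabp1 (-1.21 ± 0.21, adjusted p = 0.0289) and Crabp2 (-1 ± 0.21, adjusted p = 0.0466) fell, 2 of 8 where 3.68% of all genes passed. Each call was lost when any of several single libraries was left out. The call of Crabp1 was lost without Per1-/- or Per2-/- of day 4 or day 7 (adjusted p = 0.0761 to 0.130), and that of Crabp2 without any library other than WT of day 4 (adjusted p = 0.0597 to 0.176) and in the wider fibroblast-like class (-0.69 ± 0.22, adjusted p = 0.141). From day 7 to day 10 none of the 8 passed by edgeR (1.26% of all genes passed), 4 had an unadjusted p under 0.05 and DESeq2 called 1, Crabp1.

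**Figure D4:**
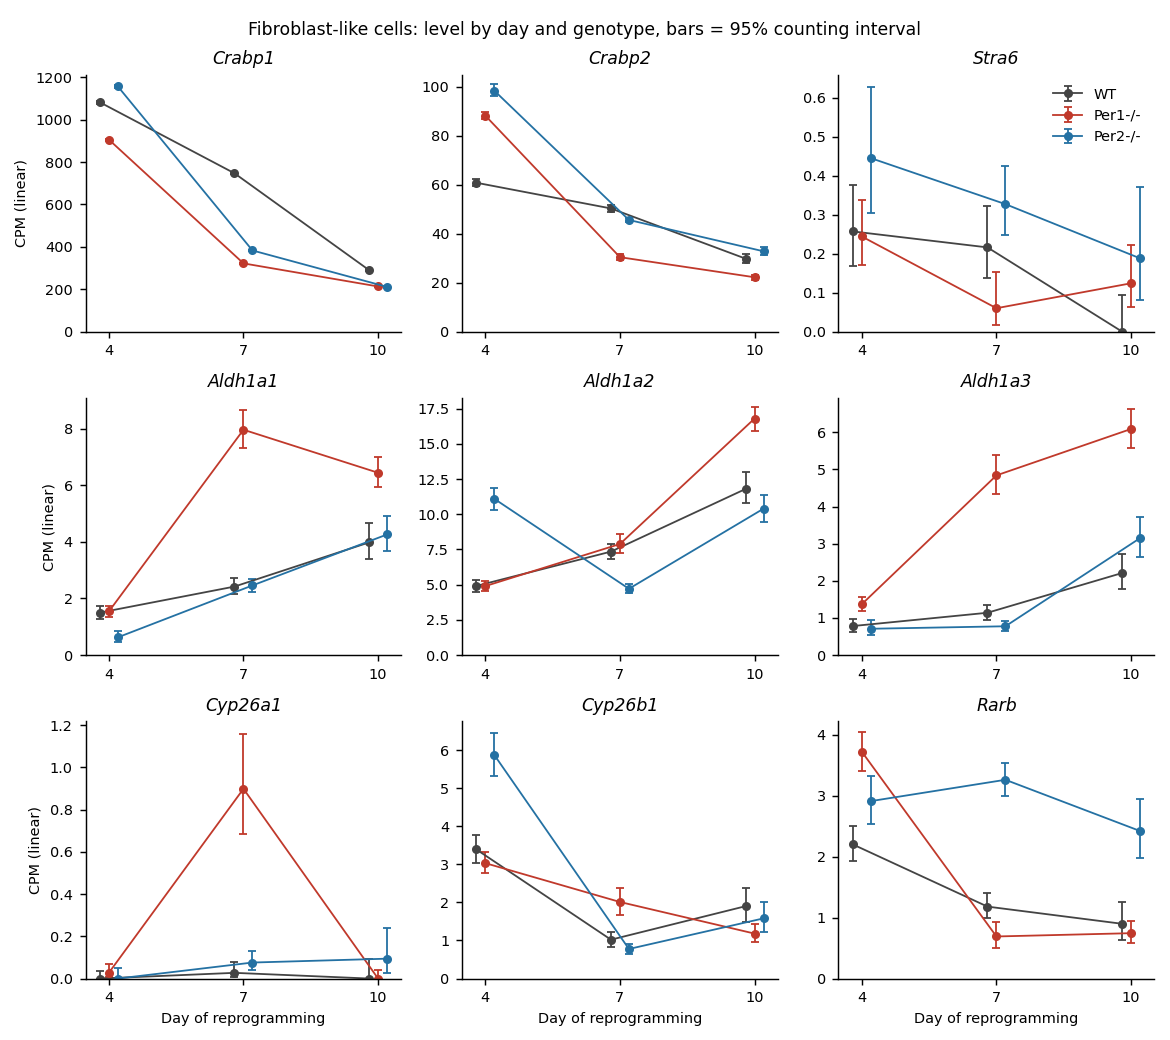
CPM of each gene in fibroblast-like cells (y axis, linear, own scale per panel) by day of reprogramming (x axis) in WT, Per1-/- and Per2-/- libraries, with 95% counting intervals. Crabp1 went from 906 to 1157 CPM on day 4 to 211 to 290 CPM on day 10 in all 3 genotypes, and Aldh1a1 and Aldh1a3 were highest in Per1-/- on days 7 and 10.

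The makeup of the class moved with the day. In Per2-/- of day 10 the class held 1844 cells, against 6786 in the wider class, which adds 3 unnamed clusters. Cluster 3 was 40.2% to 82.2% of fibroblast-like cells on day 10 and at most 4.71% on days 4 and 7, and cluster 10, the richest in Crabp1, was 17.8% to 30.2% on day 4 and 1.32% to 3.53% on day 10. In separate tests of single clusters, chosen after the data were seen, the change of Crabp1 from day 4 to day 10 was smaller. It was -0.85 ± 0.18 in cluster 1 (adjusted p = 0.0272) and -1.11 ± 0.19 in cluster 10 (adjusted p = 0.0176), and it did not pass in cluster 2 (-0.91 ± 0.36, adjusted p = 0.184) or cluster 9 (-0.34 ± 0.29, adjusted p = 0.518). In cluster 1 the 3 libraries of day 4 had 715, 539 and 604 CPM of Crabp1 and those of day 10 had 366, 466 and 241 CPM, without overlap. Crabp2 fell in cluster 1 (-1.44 ± 0.25, adjusted p = 0.011) and cluster 2 (-1.30 ± 0.22, adjusted p = 0.00574), but was -0.61 ± 0.28 in cluster 10 (adjusted p = 0.247) and 0.13 ± 0.31 in cluster 9 (adjusted p = 0.84). Aldh1a1 rose in cluster 1 (1.35 ± 0.21, adjusted p = 0.00663) and was 1.13 ± 0.46 in cluster 9 (adjusted p = 0.16), whereas Aldh1a3 passed in neither (0.58 ± 0.47, adjusted p = 0.504, and 2.19 ± 0.81, adjusted p = 0.122). Between days 4 and 7, Crabp1 fell in cluster 1 (-1.06 ± 0.18, adjusted p = 0.0194) and did not pass in clusters 2, 9 and 10 (-0.10, -0.49 and -0.31, adjusted p = 0.503 to 0.992). Crabp2 passed in none of clusters 1, 2, 9 and 10 over these days (-0.37, -0.64, -0.23 and -0.86, adjusted p = 0.176 to 0.803).

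In skeletal muscle-like cells Aldh1a2 was higher on each later day. This comparison was added after the data were seen. Its level was 13.3, 19.6 and 26.1 CPM in WT, Per1-/- and Per2-/- on day 4, 60, 72.0 and 80.2 CPM on day 7 and 121, 100 and 116 CPM on day 10, with no overlap between days. The rise was 1.89 ± 0.16 from day 4 to day 7 (adjusted p = 0.00282) and 2.60 ± 0.16 from day 4 to day 10 (adjusted p = 2.8e-05). By edgeR it was the only one of the 8 genes called in either, where 0.952% and 8.28% of all 14079 genes passed. From day 7 to day 10 none of the 8 passed (1.43% of all genes), Aldh1a2 being the only one with an unadjusted p under 0.05 (0.71 ± 0.15, adjusted p = 0.066), and DESeq2 called 1. Neither binding protein passed in these cells. Crabp1 was 266, 315 and 247 CPM on day 4 and 403, 202 and 621 CPM on day 10 (0.44 ± 0.32, adjusted p = 0.448), and Crabp2 was 118, 147 and 132 CPM and then 69.4, 50 and 119 CPM (-0.80 ± 0.26, adjusted p = 0.0982). Tested directly, the change from day 4 to day 10 differed between the classes for 2 of the 8 genes, Crabp1 and Aldh1a2 (4.63% of all genes differed). It was higher in skeletal muscle-like cells by 2.66 ± 0.50 for Crabp1 (adjusted p = 0.0249) and by 1.64 ± 0.34 for Aldh1a2 (adjusted p = 0.0332). The call of Crabp1 was lost without any library of day 4 or WT of day 10 (adjusted p = 0.0634 to 0.105), and that of Aldh1a2 without any of these or Per2-/- of day 10 (adjusted p = 0.0719 to 0.133).

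**Figure D5:**
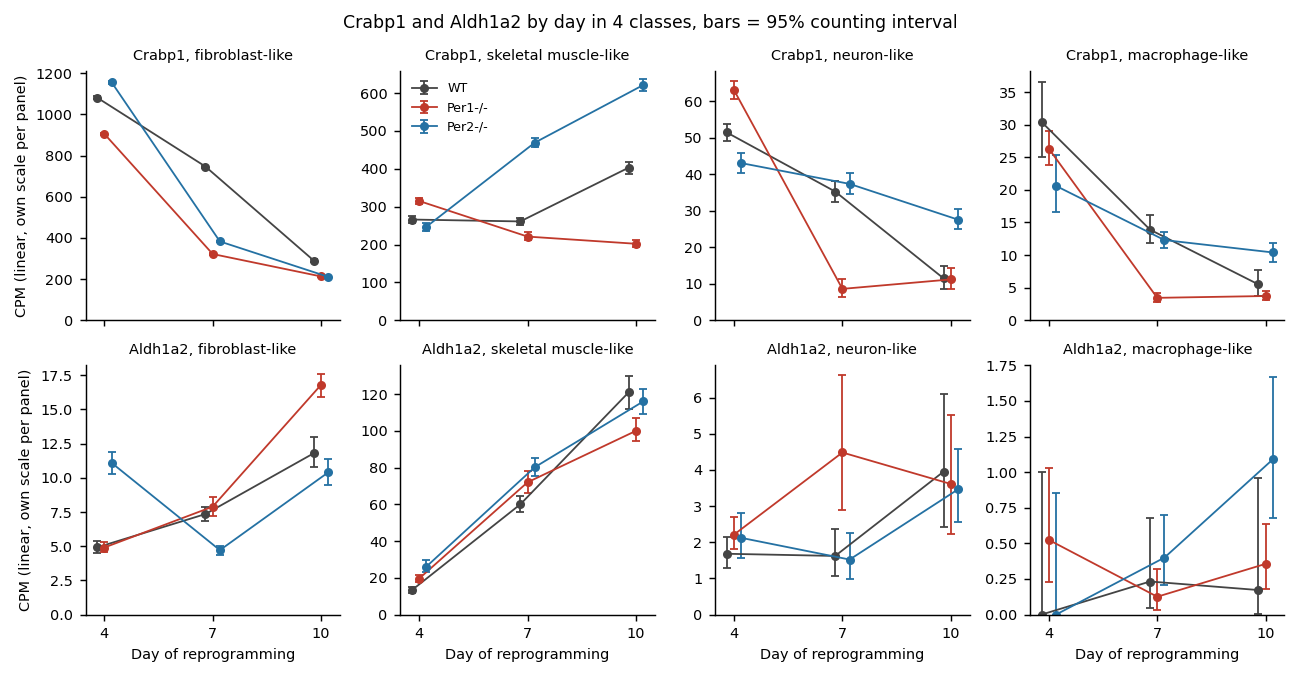
CPM of Crabp1 (top) and Aldh1a2 (bottom) on a linear y axis, own scale per panel, by day of reprogramming (x axis) in 4 classes, with 1 line per genotype and 95% counting intervals. Crabp1 ended at 211 to 290 CPM in fibroblast-like and at 202 to 621 CPM in skeletal muscle-like cells, and Aldh1a2 went from 13.3 to 26.1 CPM to 100 to 121 CPM in skeletal muscle-like cells.

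In neuron-like cells 3 of the 8 genes fell from day 4 to day 10 and 1 rose, where 39.4% of 14942 genes passed. Crabp1 was 51.5, 63.1 and 43.1 CPM on day 4 and 11.5, 11.2 and 27.6 CPM on day 10 (-1.62 ± 0.43, adjusted p = 0.0139). Its level in macrophage-like cells moved along, from 20.6 to 30.4 CPM on day 4 to 3.72 to 10.4 CPM on day 10, and whether free RNA had a part in either was not tested. Crabp2 was 30.3, 47.6 and 52.6 CPM and then 21.7, 17.4 and 39.5 CPM, which overlap (-0.69 ± 0.18, adjusted p = 0.0135). Rarb was 4.48, 4.87 and 4.15 CPM on day 4 and 2.57, 2.41 and 2.40 CPM on day 10, without overlap (-0.79 ± 0.21, adjusted p = 0.0145). Aldh1a2 was 1.68, 2.21 and 2.12 CPM and then 3.95, 3.61 and 3.46 CPM (0.98 ± 0.33, adjusted p = 0.0393). The calls did not stand in every alternative. That of Crabp1 was lost without WT or Per1-/- of day 10 (adjusted p = 0.0606 and 0.0644) and that of Crabp2 without Per1-/- of day 10 (adjusted p = 0.0701). That of Rarb was lost without WT or Per1-/- of day 4 or Per1-/- or Per2-/- of day 10 (adjusted p = 0.0517 to 0.0603) and by DESeq2 (adjusted p = 0.0606). That of Aldh1a2 was lost without any library of day 4 or WT or Per2-/- of day 10 (adjusted p = 0.0522 to 0.147), with doublets kept (0.74 ± 0.32, adjusted p = 0.0861) and in cells of at least 10000 UMIs (0.79 ± 0.37, adjusted p = 0.119). From day 4 to day 7 none passed by edgeR (16.3% of all genes passed), 3 had an unadjusted p under 0.05 and DESeq2 called 0. From day 7 to day 10 none passed either (4.73%), with 2 at an unadjusted p under 0.05 and 0 by DESeq2.

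The neuron-like class also changed its makeup, from cluster 6 (53.6% to 60.3% of its cells on days 4 and 7, and 4.34% to 11.4% on day 10) to cluster 17 (at most 3.40%, and then 56.4% to 78.4%). Rarb was 4.38 CPM in cluster 6 and 1.45 CPM in cluster 17, and Crabp2 45.2 and 12.8 CPM. Cluster 19, the richest in both genes, went the other way, from 2.17% to 4.29% of the class on day 4 to 10.8% to 22.4% on day 10. Cluster 11 went from 36.2% to 42.9% down to 6.45% to 13.0%. The part of this makeup in the changes with day was not tested. Stra6 in neuron-like cells did not pass between days 4 and 10 (-0.94 ± 0.35, adjusted p = 0.0547). Compared with the change in fibroblast-like cells, that from day 4 to day 10 differed for Crabp2 and Aldh1a1 (33.4% of all genes differed). Crabp2 fell less in neuron-like cells, by a difference of 0.89 ± 0.28 (adjusted p = 0.0316), and the rise of Aldh1a1 in fibroblast-like cells was not shared, with a difference of -2.56 ± 0.73 (adjusted p = 0.0215). From day 4 to day 7 Cyp26b1 differed by 2.71 ± 0.63 (adjusted p = 0.016), where 17.8% of all genes differed. The call of Crabp2 was lost without any library of day 4 or Per2-/- of day 10 (adjusted p = 0.0683 to 0.2), that of Aldh1a1 without WT or Per2-/- of day 4 or WT or Per1-/- of day 10 (adjusted p = 0.0518 to 0.0689), and that of Cyp26b1 without any library of day 4 or WT or Per2-/- of day 7 (adjusted p = 0.0546 to 0.0822).

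Between genotypes edgeR called 0 of the members tested in fibroblast-like, neuron-like, macrophage-like and skeletal muscle-like cells. The days served as the 3 repeats of a genotype. In fibroblast-like cells 0 of 8 passed in each of the 3 comparisons (0.0% of all genes in Per1-/- against WT, 0.0% in Per2-/- against WT and 0.0% in Per1-/- against Per2-/-), with smallest adjusted p of 0.41, 0.758 and 0.347. At an unadjusted p under 0.05 there were 3, 1 and 3, and DESeq2 called 1, 0 and 2. The shares of all genes are edgeR's, and DESeq2's own share is not given in this or the other classes. Aldh1a3 was higher in Per1-/- than in WT on each day (1.37 against 0.782, 4.84 against 1.14 and 6.09 against 2.21 CPM), by 1.55 ± 0.37 (edgeR adjusted p = 0.41, DESeq2 adjusted p = 0.00456). Against Per2-/- it differed by 1.51 ± 0.37 (edgeR adjusted p = 0.347, DESeq2 adjusted p = 0.00619), and Aldh1a1 by 1.18 ± 0.35 (0.351 and 0.0316). The Per1-/- libraries of days 7 and 10 are those that Xist sets apart. Aldh1a1 was also highest in the Per1-/- libraries of days 7 and 10 among mesothelial-like (222 and 212 CPM) and astrocyte-like cells (86.8 and 31.6 CPM). These levels rest on few cells, 81 and 55 mesothelial-like and 50 and 18 astrocyte-like cells, and a single cell held up to 157 Aldh1a1 UMIs. On day 10 the mesothelial-like level was set against 10 cells of Per2-/- only, as WT was left out. Genotypes were not tested in these classes. On day 4, where the Per1-/- library had Xist, fibroblast-like Aldh1a1 was 1.54 CPM in Per1-/-, 1.5 CPM in WT and 0.626 CPM in Per2-/-. With the summed level of Y-linked genes as a covariate, none of the 8 passed between Per1-/- and WT, but the values moved in both directions: Aldh1a3 differed by 0.45 ± 0.70, Rarb by 1.98 ± 0.39 in place of 0.10 ± 0.44 (unadjusted p = 0.00141, adjusted p = 0.989) and Aldh1a2 by -1.49 ± 0.36 in place of 0.28 ± 0.37 (unadjusted p = 0.00409, adjusted p = 0.989). The makeup of the class moved with the genotype as well. Cluster 1 was 74.0% of fibroblast-like cells in Per1-/-, 27.8% in Per2-/- and 43.0% in WT on day 7, and cluster 3, which had the most Aldh1a1 (6.26 CPM) and Aldh1a3 (5.84 CPM) of the fibroblast-like clusters, was 82.2% in Per1-/-, 62.7% in Per2-/- and 40.2% in WT on day 10. The part of this makeup in the genotype values was not tested. Without the Per1-/- library of day 4, Aldh1a3 (adjusted p = 0.0452) and Rarb (-1.79, adjusted p = 0.0348) passed between Per1-/- and Per2-/-. In 2 of the 3 Per1-/- libraries the genotype and what Xist marks cannot be told apart.

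In neuron-like cells 0 of 8 passed as well (0.0% of all genes in Per1-/- against WT, 0.00669% in Per2-/- against WT and 0.0% in Per1-/- against Per2-/-). At an unadjusted p under 0.05 there were 0, 1 and 1, and DESeq2 called 0, 1 and 1. Both were Crabp2, which was higher in Per2-/- than in WT on each day, at 52.6 against 30.3, 49.6 against 23.2 and 39.5 against 21.7 CPM. The difference was 0.96 ± 0.18 (edgeR adjusted p = 0.185, DESeq2 adjusted p = 0.000472), and against Per1-/- the DESeq2 adjusted p was 0.0499. Without the Per1-/- library of day 4, Crabp2 passed by edgeR against WT (adjusted p = 0.0358) and against Per1-/- (adjusted p = 0.0206), and in tests with no filter on low counts it passed in both (adjusted p = 0.000465 and 0.0152). In cluster 19 Crabp2 was 220, 183 and 266 CPM in Per2-/- and 114, 115 and 85.8 CPM in WT. This cluster, the richest in Crabp2, was 4.29%, 15.4% and 10.8% of neuron-like cells in Per2-/- on days 4, 7 and 10. In WT it was 2.17%, 8.83% and 22.4%, and the part of this makeup in the genotype values was not tested. In macrophage-like cells Crabp1 and Crabp2 passed the filter on low counts, and 0 of these 2 were called (0.00783% of all genes in Per1-/- against WT, 0.0% in Per2-/- against WT and 0.0783% in Per1-/- against Per2-/-). The unadjusted p was under 0.05 in 0, 0 and 1 of them, and DESeq2 called 0 in each. Without the Per2-/- library of day 4, Crabp1 passed between Per1-/- and Per2-/- (-1.41, adjusted p = 0.0291). In skeletal muscle-like cells, a comparison added after the data were seen, 0 of 8 were called (0.0071% of all genes in Per1-/- against WT, 0.0426% in Per2-/- against WT and 0.0284% in Per1-/- against Per2-/-). The unadjusted p was under 0.05 in 1, 1 and 2, and DESeq2 called 0 in each. Between Per1-/- and Per2-/-, Crabp1 passed without the Per2-/- library of day 4 (-1.25 ± 0.23, adjusted p = 0.0434) and Crabp2 without the Per1-/- library of day 4 (-1.15 ± 0.18, adjusted p = 0.0264).

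The rest of the pathway was described by 64 further genes for transport, conversion, binding, receptors, coregulators and known targets. Between classes 49 of them were tested, and 19 were higher and 24 lower in neuron-like, 14 and 25 in macrophage-like, 15 and 18 in skeletal muscle-like, 14 and 16 in mesothelial-like, 11 and 21 in Schwann-like and 17 and 17 in astrocyte-like cells. Of all genes, 79.1%, 83.4%, 61.9%, 40.7%, 67.2% and 66.2% passed in these comparisons, in the same order, and nothing particular to the pathway is read from the counts. The retinol dehydrogenase Rdh10 was at 7.27 to 26.2 CPM in fibroblast-like and 4.45 to 7.71 CPM in neuron-like cells (-1.62 ± 0.17). The alcohol dehydrogenases Adh1 (-5.99 ± 0.49) and Adh7 (-5.59 ± 0.37) were also lower in neuron-like cells. Of the receptors, Rara (-2.58 ± 0.12) and Rarg (-2.07 ± 0.12) were lower there, while Rorb, an orphan receptor of the ROR family, was higher (2.91 ± 0.16).

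Macrophage-like cells, lower than fibroblast-like cells in all 8 genes above, were highest in Dhrs3, which turns retinaldehyde back to retinol, at 102 to 219 CPM against 3.91 to 7.58 CPM in fibroblast-like cells (5.18 ± 0.22). They were also higher in Fabp5, a fatty acid-binding protein that can carry retinoic acid (4.95 ± 0.21), as were neuron-like (1.79 ± 0.19), Schwann-like (1.66 ± 0.19), astrocyte-like (2.95 ± 0.20) and skeletal muscle-like cells (1.60 ± 0.19). Rarg was lower in macrophage-like cells (-3.18 ± 0.13), as were the targets Hoxd4 (-5.33 ± 0.49) and Meis2 (-5.10 ± 0.17), while Dhrs3, also a known target, was higher. Schwann-like cells, the class with the highest median of Aldh1a3, held the retinoid X receptor Rxrg at 20.3 to 63.8 CPM against at most 0.308 CPM in fibroblast-like cells (7.97 ± 0.33) and more Dhrs3 (2.32 ± 0.21). Mesothelial-like cells added Cyp2s1, a further enzyme that can oxidise retinoic acid (5.63 ± 0.43), and the transglutaminase Tgm2, a known target (4.75 ± 0.42). Astrocyte-like cells held more Rdh5 (4.10 ± 0.23) and Rorb (4.54 ± 0.17), and skeletal muscle-like cells more of the target Rarres1 (4.61 ± 0.47). The targets Dhrs3 (-1.66 ± 0.25, adjusted p = 8.74e-08) and Rarres2 (-1.51 ± 0.21, adjusted p = 1.26e-08) were lower in the latter. Each of the other differences in this paragraph had an adjusted p of at most 1.13e-10 by edgeR.

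With time, 9 of 51 tested pathway genes rose and 2 fell in fibroblast-like cells from day 4 to day 10, where 20.7% of all genes passed. Among the rises was Hoxd4, a homeobox gene and known target, which went from 0.0556 to 0.195 CPM in the 6 libraries of days 4 and 7 to 10.6 to 16.4 CPM in the 3 libraries of day 10 (7.19 ± 0.37 from day 4 to day 10, adjusted p = 4.75e-05). It rose in neuron-like (4.69 ± 0.24, adjusted p = 9.57e-07) and skeletal muscle-like cells (5.53 ± 0.34, adjusted p = 2.8e-05) too, and the day cannot be told apart from the other gene list of day 10. The other rises included Adh1 (2.93 ± 0.39, adjusted p = 0.00363), the target Rarres2 (2.40 ± 0.25, adjusted p = 0.00135) and the serum retinol carrier Rbp4 (2.12 ± 0.49, adjusted p = 0.0229), and the falls were Rdh10 (-1.11 ± 0.23, adjusted p = 0.0167) and the retinol dehydrogenase Dhrs9 (-3.00 ± 0.51, adjusted p = 0.00846). In neuron-like cells 6 of 43 rose and 12 fell, where 39.4% of all genes passed. Those that fell included Rara (-0.74 ± 0.15, adjusted p = 0.00369) and Rarg (-0.61 ± 0.15, adjusted p = 0.00832), and those that rose included Rarres2 (2.61 ± 0.42, adjusted p = 0.00105), Rarres1 (2.06 ± 0.57, adjusted p = 0.0175) and Fabp5 (1.05 ± 0.10, adjusted p = 3.89e-05). In skeletal muscle-like cells 4 of 45 rose and 2 fell, where 8.28% of all genes passed, and Adh1 (3.24 ± 0.42, adjusted p = 0.00206), Rbp4 (3.35 ± 0.51, adjusted p = 0.00461) and Rarres2 (2.53 ± 0.27, adjusted p = 0.000608) were among those that rose. Between genotypes edgeR called 0 of 51 in fibroblast-like, 0 of 43 in neuron-like and 0 of 40 in macrophage-like cells in each of the 3 comparisons, where 0.0% to 0.0783% of all genes passed. The unadjusted p was under 0.05 for 3 to 8, 2 to 8 and 6 to 9 genes per comparison, and DESeq2 called 1 to 2, 0 and 2 to 3.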

How the data were processed

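The deposited count matrices hold UMI counts per gene and barcode, made by the authors from 10x 3′ libraries with Cell Ranger on mm10. The labels give version 7.1 and the file headers 4.0.0 for days 4 and 7 and 6.0.0 for day 10. Counts on genes shared by all libraries covered 99.29% to 99.92% of UMIs, and 597 shared genes had different symbols in the lists. Barcodes with at least 3000 UMIs and at most 20% mitochondrial UMIs were kept. Scrublet made 0 to 1026 calls of its own per library, so the barcodes with the highest scores were removed at 0.8% per 1000 barcodes. Cells were clustered with scanpy 1.11.5 and leidenalg 0.10.2 without 92 genes (the members, the other pathway genes, Xist and other sex-linked genes, and mitochondrial genes) and named from marker lists. Counts were summed per library and class and tested with edgeR 4.0.16 in R 4.3.3, with DESeq2 1.42.0 as an alternative, after tests on simulated data. With 1 library per genotype and day, days stood in for repeats of a genotype and genotypes for repeats of a day.

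The members and the gene lists were chosen with earlier results of these data known. All members were named, and other pathway genes were named by a fixed rule, those called with the largest change in each group of the list plus Rdh10, Dhrs3, Rara and Rarg, which are always given. One further gene that the rule names is not reported here. The day and genotype comparisons in skeletal muscle-like cells, the differences between classes in the change with day, the tests of single clusters and the wider fibroblast-like class were added after the data were seen.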

Additional observations from a re-analysis of the deposited data

Results flagged for a closer look

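The change with day of 5 gene and class pairs differed from that in fibroblast-like cells when the difference itself was tested (edgeR, class by day terms with the library as a block, Benjamini-Hochberg over all genes). The comparison was added after the data were seen. Of all genes, 4.63% differed in skeletal muscle-like cells from day 4 to day 10. In neuron-like cells 17.8% differed from day 4 to day 7 and 33.4% from day 4 to day 10. Each of the 5 calls was lost when any of several single libraries was left out. All values are differences of log2 changes.

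In skeletal muscle-like cells the change of Crabp1 from day 4 to day 10 was higher than in fibroblast-like cells by 2.66 ± 0.50 (adjusted p = 0.0249). Crabp1 went from 247 to 315 CPM on day 4 to 202 to 621 CPM on day 10 there, and from 906 to 1157 CPM to 211 to 290 CPM in fibroblast-like cells. The change of Aldh1a2 was higher by 1.64 ± 0.34 (adjusted p = 0.0332), with 13.3 to 26.1 CPM and then 100 to 121 CPM in skeletal muscle-like cells and 4.90 to 11.1 CPM and then 10.4 to 16.8 CPM in fibroblast-like cells.

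In neuron-like cells the change of Cyp26b1 from day 4 to day 7 was higher by 2.71 ± 0.63 (adjusted p = 0.016), with 0.533 to 1.08 CPM and then 0.359 to 1.74 CPM, against 3.03 to 5.87 CPM and then 0.776 to 2.01 CPM in fibroblast-like cells. From day 4 to day 10 that of Crabp2 was higher by 0.89 ± 0.28 (adjusted p = 0.0316), with 30.3 to 52.6 CPM and then 17.4 to 39.5 CPM, against 60.8 to 98.4 CPM and then 22.2 to 32.8 CPM in fibroblast-like cells. That of Aldh1a1 was lower, at -2.56 ± 0.73 (adjusted p = 0.0215), with 0.819 to 1.39 CPM and then 0.395 to 0.847 CPM, against 0.626 to 1.54 CPM and then 3.98 to 6.44 CPM. The makeup of both classes by cluster moved with the day, and its part in these differences was not tested.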

How the results depend on the processing

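Every call between days or genotypes rests on 9 libraries with 1 per genotype and day, so that a culture, its genotype and its day cannot be separated further, and day 10 carried another gene list. WT of day 10 was shallow, and Cyp26a1 had too few UMIs to pass the filter on low counts. No paired analysis was possible because the labels give no replicate numbers, other than what the tests already hold: the library as a block between classes, and genotype and day as factors within a class.

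Of the changes of called genes under each alternative, 702 kept direction and call, 67 kept the direction only and 1 turned: Crabp2 in fibroblast-like cells from day 4 to day 10 was 0.13 in cluster 9 alone. The counts below are of genes called among those described. The share of all genes called is not given for the alternatives, so a higher count can come from a setting that calls more genes of any kind. For fibroblast-like cells from day 4 to day 10 it was 4, against 7 by DESeq2, 7 with the Y-linked covariate, 7 with doublets kept and 1 in each of clusters 2, 9 and 10 alone, and 3 to 6 with a library left out. From day 4 to day 7 it was 2, against 4 by DESeq2, 4 with the Y-linked covariate, 4 with no filter, 1 in the wider class, 0 in each of clusters 2, 9 and 10 alone, and 0 to 3 with a library left out. From day 7 to day 10 it was 0, against 1 by DESeq2 and 1 with no filter, and 0 to 1 with a library left out. For neuron-like cells it was 4 from day 4 to day 10 (1 to 4 with a library left out) and 0 from day 4 to day 7 (2 with no filter, 0 to 2 with a library left out). For skeletal muscle-like cells from day 4 to day 10 it was 1, against 4 by DESeq2, 2 with doublets kept and 5 with no filter (1 to 2 with a library left out), and from day 7 to day 10 it was 0, against 1 by DESeq2 and 1 with no filter (0 to 1).

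Between Per1-/- and Per2-/- the count was 0 in each class, against 2 by DESeq2 in fibroblast-like cells (0 to 2 with a library left out), 1 by DESeq2 and 1 with no filter in neuron-like cells (0 to 1), and 0 to 1 with a library left out in macrophage-like cells and in skeletal muscle-like cells. DESeq2 called 1 between Per1-/- and WT in fibroblast-like cells. Between Per2-/- and WT in neuron-like cells it was 0, against 1 by DESeq2 and 1 with no filter (0 to 1). The causes of these differences were not tested. The 22 of 45 tests of differences between classes that lost their call did so without 1 library.

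With doublets kept, 3 of 56 median levels moved, to 24.9 CPM for Crabp1 in Schwann-like, 8.69 CPM for Crabp2 in astrocyte-like and 0.468 CPM for Aldh1a3 in macrophage-like cells. The ratio of Crabp1 and Crabp2 in 1 cell was 1.09 in unthinned fibroblast-like cells. Sums with equal shares of every fibroblast-like cluster were not run, since cluster 3 had 0 cells in 2 libraries of day 4.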
